A study of Saccharomyces cerevisiae with 12 samples.

Results

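Ribonucleotide reductase turns ribonucleotides into the deoxyribonucleotides that DNA synthesis consumes, and yeast controls it at the level of transcription, of a protein inhibitor and of the location of its subunits. The 7 genes described here are those whose systematic name on the array equals YER070W (RNR1), YJL026W (RNR2), YIL066C (RNR3), YGR180C (RNR4), YML058W (SML1), YML058W-A (HUG1) or YDL101C (DUN1). Each had 1 probe among the 6256 gene probes, and all 7 were among the 6083 genes kept by the filter on dim probes. They were measured on 12 single-colour arrays of Saccharomyces cerevisiae, 1 array for each of 2 runs of 6 groups.

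All groups share the xylose-fermenting background MT8-1X. The control strain is labelled MT8-1X/404-405, the TAL-expressing strain MT8-1X/TAL-405 and the strain expressing both introduced genes MT8-1X/TAL-ADH. Each was sampled after 6 h with 0 or with 70 mM furfural, an aldehyde that forms when plant biomass is hydrolysed and that slows fermentation. The labels name neither the introduced genes in full nor their promoters, nor how many clones were used. Nothing in the labels tells if both runs came from separate cultures, so each p-value covers only how these arrays spread, and that spread may be technical.

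In the textbook account, RNR1 encodes the main large subunit, which holds the active site and is transcribed most strongly as cells enter S phase, and RNR3 encodes a second large subunit that is scarce until DNA is damaged. RNR2 and RNR4 encode the small subunits; the RNR2 protein carries the iron centre and the radical that starts the reaction, and the RNR4 protein helps to assemble it. SML1 encodes a small protein that binds and inhibits the large subunit. DUN1 encodes a protein kinase that acts below the checkpoint kinases MEC1 and RAD53, marks the SML1 protein for destruction and relieves repression of the damage-induced genes. HUG1 encodes a small protein induced by DNA damage and by blocked replication, and with RNR3 it is used as a marker of that signalling. In the RefSeq annotation of the reference strain (assembly R64), HUG1 and SML1 are neighbouring protein-coding genes on chromosome XIII. RNR1 lies on chromosome V, RNR2 on X, RNR3 on IX, RNR4 on VII and DUN1 on IV.

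Levels are log2 values relative to the 75th percentile of the gene probes on the same array, so a level of 0 equals that percentile, and a level of 1 probe is not set against that of another. On the 12 arrays that percentile lay between 2529 and 7414 intensity units, 94.8% to 97.9% of gene spots stood well above background, and the genes detected numbered 5914 to 6121. Over all kept genes the arrays formed 2 sets of 6. The first principal component, with 61.5% of the variance, put the control arrays with furfural and both groups of TAL at 31.6 to 54.9 (the first set). It put the control arrays without furfural and both groups of TAL-ADH at -47.0 to -39.1 (the second set). The arrays labelled TAL 0 mM thus lay with the furfural-exposed control arrays, and those labelled TAL-ADH 70 mM with the unexposed ones, so every group is named below by its label. A set of 137 cytosolic ribosomal protein genes averaged 2.43 to 2.76 log2 in the groups of the second set and -0.75 to -0.10 in those of the first. A set of 15 general stress genes averaged 0.28 to 0.58 in the second set and 2.27 to 3.37 in the first.

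The arrays also lay on 3 slides of 4 arrays. One slide held control 0 mM beside TAL-ADH 70 mM, the next control 70 mM beside TAL 70 mM, and the last TAL 0 mM beside TAL-ADH 0 mM. The strains TAL and control at 70 mM, and TAL-ADH and TAL at 0 mM, are therefore compared within 1 slide. For every other pair of groups tested, slide and group cannot be told apart.

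RNR1 and DUN1 differed between the 2 sets of arrays. RNR1 was 5.79 to 7.53 times higher in the second set in each of 5 comparisons between groups of different sets that had a test, and DUN1 was 2.23 to 2.71 times higher in the same 5. In these 5 comparisons 25.7% to 36.6% of all kept genes passed the test, so a call there was common among all genes. The 2 sets were themselves read from the first principal component of the same arrays. RNR4 passed the test in 1 comparison. RNR2, RNR3, SML1 and HUG1 passed it in none of the 13 comparisons with the settings used here.

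**Figure D1:**
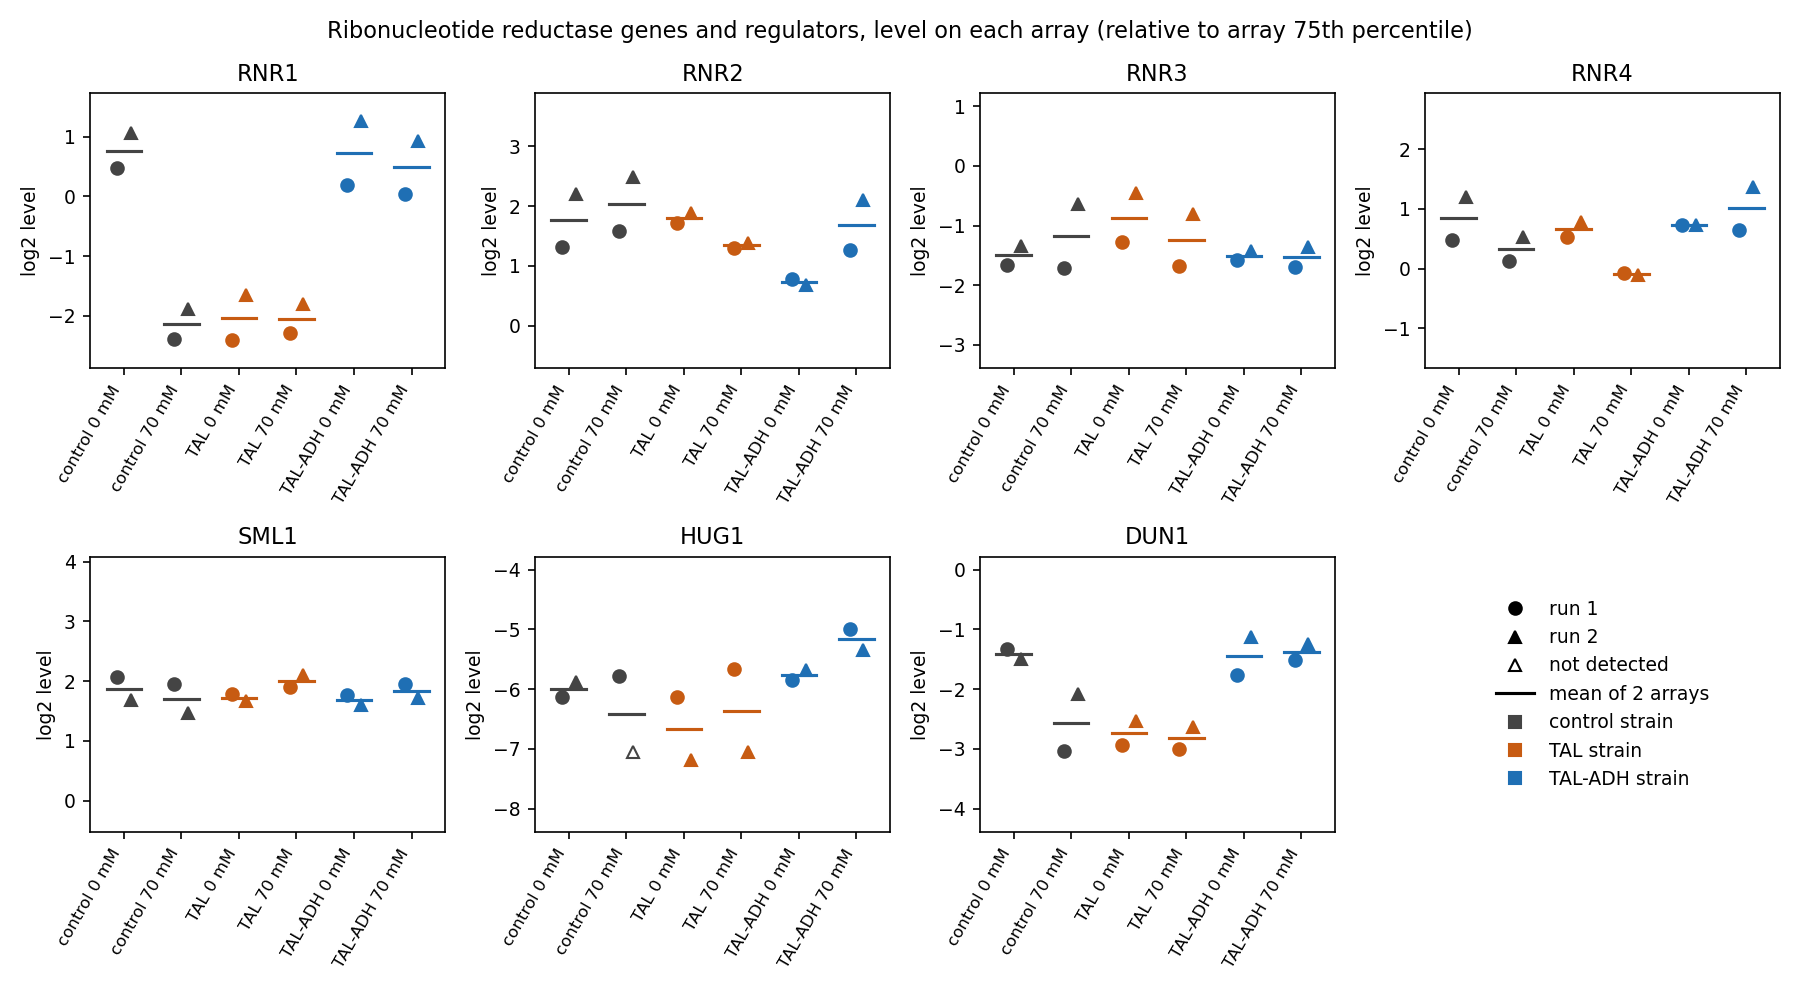
Level of each of the 7 genes on each array, as log2 relative to the 75th percentile of the array, for the 6 groups. Circles are run 1, triangles run 2, the open triangle is an array on which the gene was not detected, bars are means of 2 arrays and colours are strains; RNR1 lies between 0.04 and 1.26 in 3 groups and between -2.41 and -1.64 in the other 3.

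RNR1, the main large subunit, stood at 0.47 and 1.07 in runs 1 and 2 of the control strain without furfural and at -2.39 and -1.89 with it. In the TAL strain it stood at -2.41 and -1.64 without furfural and at -2.28 and -1.81 with it. In the TAL-ADH strain it stood at 0.19 and 1.26 without furfural and at 0.04 and 0.93 with it. Of the 12 arrays 6 were high and 6 were low, with none between -1.64 and 0.04, and both arrays of a group were on the same side.

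The order of the RNR1 group means (± SD, n = 2) began with the control strain at 0 mM, 0.77 ± 0.43, followed by TAL-ADH at 0 mM, 0.72 ± 0.76, and TAL-ADH at 70 mM, 0.49 ± 0.63. It went on with TAL at 0 mM, -2.03 ± 0.54, TAL at 70 mM, -2.04 ± 0.34, and the exposed control strain, -2.14 ± 0.35. Neighbours in this order differed by less than their SDs except at the step from TAL-ADH 70 mM to TAL 0 mM. Over the 6 group means RNR1 spanned 2.91 log2, and 6.51% of the kept genes spanned more; the median gene spanned 1.16.

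DUN1, the checkpoint kinase, stood at -1.33 and -1.49 in runs 1 and 2 of the control strain without furfural and at -3.04 and -2.09 with it. In the TAL strain it stood at -2.93 and -2.53 without and at -3.01 and -2.63 with furfural. In the TAL-ADH strain it stood at -1.76 and -1.13 without and at -1.52 and -1.25 with furfural. The same 6 arrays were high as for RNR1, and the 2 sets did not overlap. As given for RNR1, most kept genes lacked overlap in the tested pairs of groups across the sets. Run 2 of the control strain at 70 mM was the highest of the low arrays, and run 1 of TAL-ADH at 0 mM the lowest of the high ones.

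By group mean, DUN1 was ordered TAL-ADH 70 mM at -1.38 ± 0.19, control 0 mM at -1.41 ± 0.11, TAL-ADH 0 mM at -1.45 ± 0.45, control 70 mM at -2.56 ± 0.67, TAL 0 mM at -2.73 ± 0.28 and TAL 70 mM at -2.82 ± 0.27 (SD, n = 2). Again neighbours differed by less than their SDs except at the one step between the sets. The span of 1.44 log2 was exceeded by 35.6% of the kept genes, so the DUN1 range was not far from that of the median gene.

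RNR2, the small subunit with the iron centre, stood at 1.32 and 2.21 in runs 1 and 2 of the control strain without furfural and at 1.59 and 2.49 with it. The TAL strain gave 1.71 and 1.89 without and 1.30 and 1.39 with furfural. The TAL-ADH strain gave 0.78 and 0.68 without and 1.26 and 2.11 with furfural. Its lowest arrays were both those of TAL-ADH at 0 mM, while the 2 runs of the control strain at either dose and of TAL-ADH at 70 mM lay 0.85 to 0.90 log2 apart. The group means ran from 2.04 ± 0.64 in the control strain at 70 mM through 1.80 ± 0.13 in TAL at 0 mM, 1.76 ± 0.63 in the control strain at 0 mM, 1.68 ± 0.60 in TAL-ADH at 70 mM and 1.34 ± 0.07 in TAL at 70 mM to 0.73 ± 0.07 in TAL-ADH at 0 mM. The last step, between TAL 70 mM and TAL-ADH 0 mM, was the one between neighbours that exceeded the SDs of both.

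RNR4, the other small subunit, stood at 0.49 and 1.20 in runs 1 and 2 of the control strain without furfural and at 0.13 and 0.52 with it. TAL arrays read 0.53 and 0.78 without and -0.07 and -0.10 with furfural. TAL-ADH arrays read 0.73 in both runs without and 0.65 and 1.37 with furfural. The TAL arrays at 70 mM were the lowest of the 12. The group means ran from 1.01 ± 0.51 in TAL-ADH at 70 mM through 0.84 ± 0.50 in the control strain at 0 mM, 0.73 ± 0.003 in TAL-ADH at 0 mM, 0.66 ± 0.17 in TAL at 0 mM and 0.33 ± 0.27 in the control strain at 70 mM to -0.08 ± 0.03 in TAL at 70 mM. The last 2 steps exceeded the SDs of both neighbours, and no earlier step did. RNR2 and RNR4, whose proteins work as a pair, thus had their lowest group means in different groups.

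RNR3, the damage-inducible large subunit, stood at -1.65 and -1.34 in runs 1 and 2 of the control strain without furfural and at -1.72 and -0.64 with it. For TAL it was -1.28 and -0.46 without and -1.67 and -0.80 with furfural. For TAL-ADH it was -1.58 and -1.43 without and -1.69 and -1.35 with furfural. The 3 highest arrays were the run 2 arrays of control 70 mM, TAL 0 mM and TAL 70 mM. The run 1 array of control 70 mM was the lowest of all, and that of TAL 70 mM lay among those of the other groups. Group means ranged from -1.52 ± 0.24 in TAL-ADH at 70 mM to -0.87 ± 0.58 in TAL at 0 mM, and 85.0% of the kept genes spanned more than the 0.65 log2 between them. With TAL-ADH at 0 mM at -1.50 ± 0.11, the control strain at -1.49 ± 0.23 without and -1.18 ± 0.76 with furfural, and TAL at 70 mM at -1.24 ± 0.62, no neighbours in this order differed by more than both SDs.

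HUG1, the damage-inducible small protein, was measured close to background, with median spot intensities of 21.8 to 145 units on the 12 arrays. It stood at -6.13 and -5.88 in runs 1 and 2 of the control strain without furfural and at -5.78 and -7.05 with it. In the TAL strain it stood at -6.14 and -7.18 without and at -5.66 and -7.06 with furfural. In the TAL-ADH strain it stood at -5.85 and -5.68 without and at -4.99 and -5.34 with furfural. The 2 TAL-ADH arrays at 70 mM were the highest of the 12. On the run 2 array of the control strain at 70 mM, 2 of its 7 spots were well above background, so it was not detected there, and on the run 2 arrays of TAL at 0 and 70 mM 4 of 7 were. These are also its 3 lowest arrays. The group means were -5.17 ± 0.24 in TAL-ADH at 70 mM, -5.77 ± 0.12 in TAL-ADH at 0 mM, -6.01 ± 0.18 in the control strain at 0 mM, -6.36 ± 0.99 in TAL at 70 mM, -6.41 ± 0.90 in the exposed control strain and -6.66 ± 0.74 in TAL at 0 mM. The step from TAL-ADH 70 mM to TAL-ADH 0 mM exceeded the SDs of both neighbours, as did the step of 0.24 log2 from there to the control strain at 0 mM, and no later step did. Neither of these differences passed the test (limma adjusted p = 0.999 and 0.974).

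SML1, the inhibitor, spanned the least of the 7 over the group means. It stood at 2.07 and 1.68 in runs 1 and 2 of the control strain without furfural and at 1.95 and 1.46 with it. Its TAL levels were 1.78 and 1.67 without and 1.91 and 2.10 with furfural. Its TAL-ADH levels were 1.77 and 1.61 without and 1.96 and 1.71 with furfural. Group means ranged from 1.69 ± 0.11 in TAL-ADH at 0 mM to 2.00 ± 0.13 in TAL at 70 mM, a span of 0.32 log2 that 98.5% of the kept genes exceeded. Between these lay 1.71 ± 0.35 in the control strain at 70 mM, 1.72 ± 0.08 in TAL at 0 mM, 1.84 ± 0.17 in TAL-ADH at 70 mM and 1.88 ± 0.28 in the control strain at 0 mM, and no neighbours in this order differed by more than both SDs. The neighbours SML1 and HUG1 did not share a pattern; their levels correlated at r = 0.18 over the 12 arrays.

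The first comparison asks how furfural changed the genes in each strain. In the control strain RNR1 fell by 2.91 log2 with furfural, 7.53-fold (SE 0.46, limma adjusted p = 0.00179). DUN1 fell by 1.15 log2, 2.23-fold (SE 0.35, limma adjusted p = 0.0309). Thus 2 of the 7 genes fell and none rose, where 35.4% of the 6083 genes passed the test, 849 rising and 1307 falling. From the most strongly falling gene, RNR1 held place 77 of 6083 and DUN1 place 839. The median of all genes was -0.18 log2. The other 5 genes differed by -0.51 ± 0.31 (RNR4), -0.41 ± 0.54 (HUG1), -0.17 ± 0.24 (SML1), 0.27 ± 0.40 (RNR2) and 0.32 ± 0.43 log2 (RNR3; each ± SE), with adjusted p from 0.227 to 0.621. For RNR3 the 95% interval of the difference ran from -0.65 to 1.29 log2 and for HUG1 from -1.64 to 0.82, so these arrays leave room for a change of more than 1 log2 in either marker.

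The call for DUN1 in the control strain depended on single arrays and on the scaling. It missed the threshold without run 1 of the control strain at 0 mM (-1.08, adjusted p = 0.139), without run 2 of it (-1.23, 0.0948) and without run 1 at 70 mM (-0.68, 0.156). It also missed it with normexp background correction (-1.08, 0.0609) and with quantile normalization (-0.82, 0.161). RNR1 kept its call in each of these refits.

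In the TAL strain none of the 7 genes passed the test (limma; RNR4 had an unadjusted p under 0.05), and 0.0986% of all genes did. RNR1 differed by -0.02 ± 0.46 log2 (SE), with a 95% interval from -1.06 to 1.03. The widest difference was that of RNR4, -0.74 ± 0.31 log2 with an adjusted p of 0.331, and DUN1 differed by -0.09 ± 0.35. The TAL arrays at 0 mM were already on the low side for RNR1 and DUN1.

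In the TAL-ADH strain none of the 7 passed either (limma; RNR2 had an unadjusted p under 0.05), and 0.0329% of all genes did. RNR1 differed by -0.24 ± 0.46 log2 (SE), with a 95% interval from -1.28 to 0.81. RNR2 differed by 0.95 ± 0.40 log2, which is 1.93-fold, with an adjusted p of 0.999. It held place 15 of 6083 from the most strongly rising gene. HUG1 differed by 0.60 ± 0.54 and RNR3 by -0.01 ± 0.43.

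Tests of the difference between strains in the furfural effect bore on RNR1. The effect was 2.90 log2 less negative in the TAL than in the control strain (SE 0.65, limma adjusted p = 0.0241), where 10.2% of all genes passed and RNR1 was the one of the 7 that did. It was 2.68 log2 less negative in the TAL-ADH than in the control strain (SE 0.65, limma adjusted p = 0.0217), where 19.6% of all genes passed and RNR1 was again the one of the 7. For DUN1 these differences were 1.07 ± 0.50 (adjusted p = 0.215) and 1.22 ± 0.50 log2 (0.115). Between TAL-ADH and TAL none of the 7 passed the limma test, and 0% of all genes did. Of all genes 406, RNR2 and RNR4 among them, had an unadjusted p under 0.05. There RNR1 differed by -0.22 ± 0.65 and RNR2 by 1.41 ± 0.56 log2, the latter with an adjusted p of 0.721. The RNR1 call between TAL and control was lost in 6 refits that left out 1 array (2.51 to 3.20 log2, highest adjusted p 0.0887) and that between TAL-ADH and control in 4 (2.14 to 2.43, highest 0.086). These comparisons share arrays, and they contain the groups whose profiles go against their labels, so the direction of each rests on labels that were not tested.

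Over the 3 strains together, none of the 7 passed the test, nor did any of the 6083 genes (0%; 1381 of them, RNR1 among these, had an unadjusted p under 0.05 in limma). RNR1 differed by -1.05 ± 0.47 log2 (SE) with an adjusted p of 0.213. Without the arrays labelled TAL 0 mM and TAL-ADH 70 mM, RNR1 differed by -2.91 log2 (limma adjusted p = 0.00324) and DUN1 by -1.15 (0.0570). In that fit the control strain alone had both doses. Its furfural term is therefore the control strain's difference given above, not a second result over the 3 strains. With slide as a term, RNR1 differed by -3.13 log2 (limma adjusted p = 0.0712) and DUN1 by -1.002 (0.468). That fit has as many terms as groups, so its furfural term only combines differences within slides. It is TAL-ADH 70 mM minus control 0 mM, less TAL-ADH minus TAL at 0 mM, less TAL minus control at 70 mM. For RNR1 the middle difference, between strains without furfural, was 2.75 log2. The term is thus not a mean furfural effect of the strains corrected for slide.

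**Figure D2:**
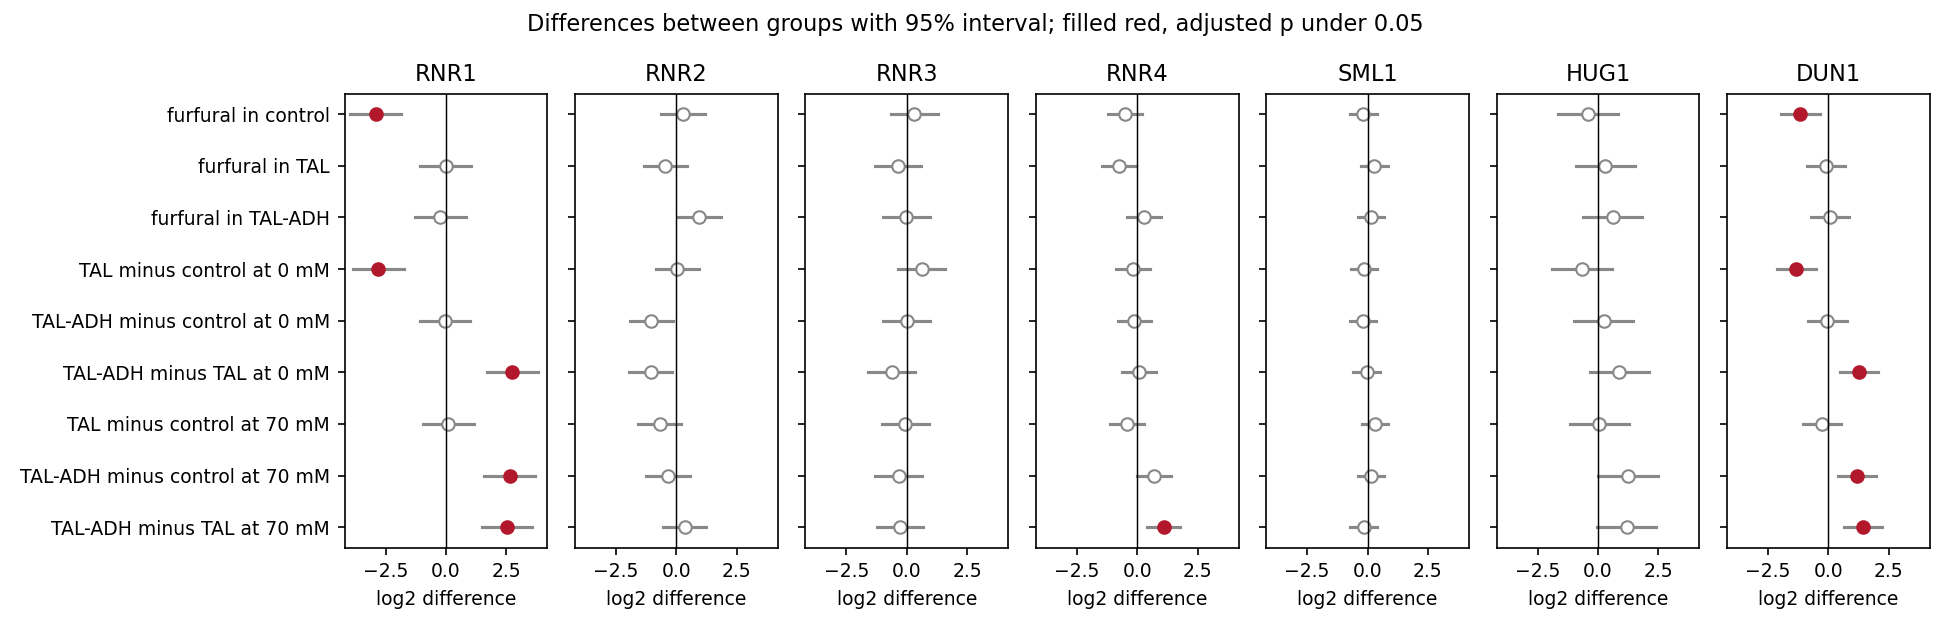
Difference in log2 level of each of the 7 genes in the comparisons between groups, with 95% intervals from the limma fit over all kept genes. Filled red points passed the test at an adjusted p under 0.05; RNR1 and DUN1 pass in the same 5 comparisons of groups, RNR4 in TAL-ADH minus TAL at 70 mM, and the intervals of RNR3 and SML1 cover 0 throughout.

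The strains were compared next at each dose. Without furfural, the TAL strain had 2.80 log2 less RNR1 than the control strain, 6.95-fold (SE 0.46, limma adjusted p = 0.00253), and 1.32 log2 less DUN1, 2.5-fold (SE 0.35, 0.0221). These 2 of 7 genes were lower and none was higher, where 28.4% of all genes passed. RNR3 differed by 0.62 ± 0.43 log2 (adjusted p = 0.313) and HUG1 by -0.65 ± 0.54 (0.405), in opposite directions. DUN1 missed the threshold when any 1 of the 4 arrays compared was left out, namely without run 1 (-1.24, adjusted p = 0.117) or run 2 (-1.40, 0.0795) of the control strain and run 1 (-1.12, 0.103) or run 2 (-1.52, 0.0511) of TAL. HUG1 passed the test with quantile normalization, at -1.04 log2 (adjusted p = 0.0467).

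The comparison of TAL-ADH with TAL at 0 mM lay within 1 slide. RNR1 was 2.75 log2 higher in TAL-ADH, 6.73-fold (SE 0.46, limma adjusted p = 0.00298), and DUN1 was 1.28 log2 higher, 2.44-fold (SE 0.35, 0.0265). These 2 of 7 were higher and none was lower, where 25.7% of all genes passed. This RNR1 difference of 2.75 log2 within 1 slide stands beside sizes of 2.53 to 2.91 in the 4 comparisons across slides. RNR2 was lower by 1.07 ± 0.40 log2, which is 2.10-fold, with an adjusted p of 0.0794. It passed with quantile normalization (-1.10, 0.0441). DUN1 missed the threshold without run 1 (1.08, 0.115) or run 2 (1.48, 0.0637) of TAL and without run 2 of TAL-ADH (0.97, 0.156).

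Between TAL-ADH and the control strain at 0 mM, none of the 7 passed the test (limma; RNR2 had an unadjusted p under 0.05), and 0.0164% of all genes did. RNR1 differed by -0.05 ± 0.46 log2 and DUN1 by -0.04 ± 0.35. RNR2 differed by -1.03 ± 0.40 log2, which is 2.04-fold lower in TAL-ADH (adjusted p = 0.637), and it held place 28 of 6083 from the most strongly lower gene. The low RNR2 arrays of TAL-ADH at 0 mM enter this difference, the one against TAL and the furfural effect in TAL-ADH, so these 3 differences are not independent.

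At 70 mM, the TAL and control strains lay on 1 slide and none of the 7 passed the test (limma; none had an unadjusted p under 0.05), where 0.0822% of all genes did. RNR1 differed by 0.10 ± 0.46 log2, with a 95% interval from -0.95 to 1.14. RNR2 differed by -0.69 ± 0.40 and RNR4 by -0.41 ± 0.31, neither of which passed.

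TAL-ADH at 70 mM differed from both other strains at that dose. Against the control strain RNR1 was 2.63 log2 higher, 6.19-fold (SE 0.46, limma adjusted p = 0.0027), and DUN1 was 1.18 log2 higher, 2.27-fold (SE 0.35, 0.0278). These 2 of 7 were higher and none was lower, where 36.6% of all genes passed. DUN1 missed the threshold without run 1 of the control strain (0.70, 0.141), without run 1 (1.31, 0.0722) or run 2 (1.05, 0.141) of TAL-ADH, with normexp (1.09, 0.0556) and with quantile normalization (0.84, 0.147).

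Against TAL at 70 mM, RNR1 was 2.53 log2 higher in TAL-ADH, 5.79-fold (SE 0.46, limma adjusted p = 0.00346), DUN1 was 1.44 log2 higher, 2.71-fold (SE 0.35, 0.0139), and RNR4 was 1.09 log2 higher, 2.13-fold (SE 0.31, 0.0266). These 3 of 7 were higher and none was lower, where 31.9% of all genes passed. RNR4 missed the threshold without run 1 (1.11, 0.0794) or run 2 (1.07, 0.111) of TAL and without run 2 of TAL-ADH (0.73, 0.194). DUN1 missed it without run 1 of TAL (1.25, 0.0718), without run 2 of TAL-ADH (1.30, 0.0907) and, with quantile normalization, at 1.20 log2 (0.0511).

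HUG1 values changed with the scaling, with single arrays left out and with the treatment of background. At 70 mM HUG1 was 1.25 ± 0.54 log2 higher in TAL-ADH than in the control strain (SE, adjusted p = 0.102) and 1.19 ± 0.54 higher than in TAL (0.124). With quantile normalization these differences were 1.60 (0.00818) and 1.52 log2 (0.00989), both past the threshold. With quantile normalization the furfural effect in TAL-ADH minus that in the control strain also passed, at 1.94 log2 (0.0274), against 1.01 ± 0.77 (0.38) otherwise. The difference from the control strain passed without run 1 of the control strain (1.88, 0.0391), and that from TAL without run 1 of TAL (1.89, 0.041). With normexp correction the difference from TAL was -0.46 log2, opposite in sign. HUG1 was detected on 1 of the 2 control arrays at 70 mM.

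The 2 arrays of a group differed in a way that most but not all of the 7 genes shared. RNR1 was higher on run 2 in 6 of 6 groups, by 0.48 to 1.07 log2, and RNR3 in 6 of 6, by 0.15 to 1.07. RNR2, RNR4 and DUN1 were each higher on run 2 in 5 of 6 groups. For RNR3 the differences were 0.82 to 1.07 in control 70 mM, TAL 0 mM and TAL 70 mM and 0.15 to 0.33 in the other 3 groups. HUG1 was lower on run 2 by 1.04 to 1.40 log2 in those first 3 groups, and differed by -0.35 to 0.25 in the others. SML1 was lower on run 2 in 5 of 6 groups. In these 3 groups the run 2 arrays are those with 2 or 4 of 7 HUG1 spots well above background. RNR3 and HUG1 differed between runs in opposite directions in 4 of 6 groups and in the same direction in the control and TAL-ADH strains at 0 mM. The spread over the spots of a probe on an array was smaller, with SDs of 0.02 to 0.08 log2 for RNR1, 0.02 to 0.07 for RNR3 and 0.08 to 0.32 for HUG1, and no spot of the 7 probes was saturated.

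**Figure D3:**
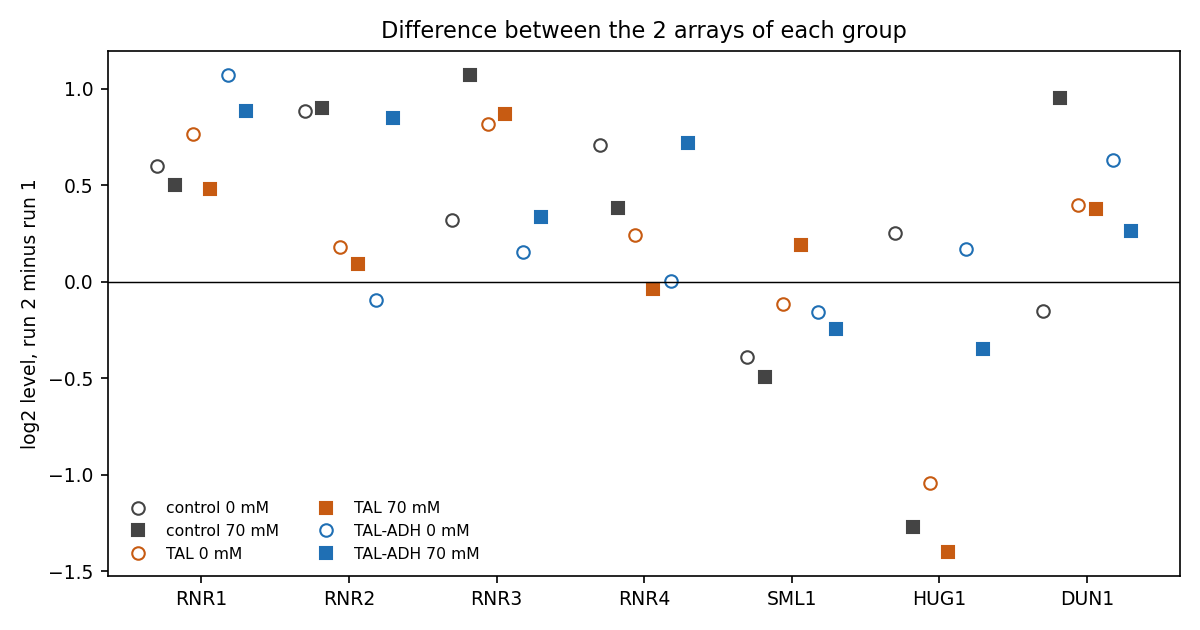
Level on run 2 minus level on run 1 in each of the 6 groups, in log2, for each of the 7 genes. Colours are strains, open circles 0 mM and filled squares 70 mM furfural; all 6 points of RNR1 and of RNR3 lie above 0, and 3 of HUG1 lie between -1.40 and -1.04.

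Over the 12 arrays the pair of members most alike was RNR1 and DUN1, with r = 0.96, and r = 0.75 and 0.71 within the 6 arrays of the first and of the second set. RNR1 correlated with RNR4 at 0.72 and with RNR3 at -0.31 over 12 arrays, but with RNR3 at 0.91 and 0.87 within the 2 sets of 6. RNR3 and HUG1 correlated at -0.87 over 12 arrays, at -0.98 within the first set and at -0.08 within the second. On the run 2 arrays of the first set RNR3 was highest and HUG1 lowest. There HUG1 was near background, with 2 or 4 of its 7 spots well above it. RNR2 and RNR4 correlated at 0.32 over 12 arrays and at 0.72 and 0.78 within the sets. These correlations are descriptions: arrays share slides, runs and the split into 2 sets, which alone gives a high r to genes that differ between the sets.

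For each member the kept genes with the highest r over the 12 arrays were also listed. For RNR1 these were CNL1 (0.993), EXG1 (0.990) and CDC21 (0.989), the last being the thymidylate synthase gene, whose product also supplies a DNA precursor. CDC21 correlated with RNR1 at 0.70 and 0.98 within the 2 sets. For RNR2 they were FUM1, the fumarase gene (0.912), TAM41 (0.889) and ERV29 (0.875), and for RNR4 NEM1 (0.928), SRB2 (0.925) and LSC2 (0.906). For RNR3 they were YMR158C-B (0.973), SOD2, the mitochondrial superoxide dismutase gene (0.965), and ATG33 (0.948). For HUG1 they were NOP4 (0.951), TRM11 (0.928) and YMR013W-A (0.925). For SML1 they were FAD1 (0.899), MSO1 (0.865) and ECT1 (0.830), and for DUN1 MET18 (0.971), FRE7 (0.970) and YDL211C (0.970).

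The genes around the enzyme were described from lists of its regulators, of its reductants and of other genes of DNA precursor supply. In the control strain, 3 of 21 checkpoint genes and regulators of the enzyme rose with furfural, 4 fell and 14 did not pass, with a median of -0.08 log2 beside -0.18 for all genes. The share called in this list was close to the 35.4% over all genes, and the genes are named to give the values of the regulators. ROX1, a repressor of hypoxic genes, rose by 2.48 ± 0.47 log2 (SE), IXR1, a DNA-binding regulator of RNR1, by 1.84 ± 0.47 and WTM1, which anchors the small subunits in the nucleus, by 0.69 ± 0.21. KAP122, a nuclear import receptor, fell by 1.85 ± 0.41 log2, RAD17, a checkpoint clamp subunit, fell by 1.30 ± 0.35 and RAD53, the kinase above DUN1, fell by 1.03 ± 0.29 (adjusted p = 0.0236). MEC1, the apical kinase, differed by 0.32 ± 0.31, RFX1, the repressor of the damage-induced reductase genes, by 0.03 ± 0.20 and DIF1, which directs the small subunits to the nucleus, by 0.41 ± 0.42, and none of these passed.

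Of 16 other genes known to be induced by DNA damage, 2 rose with furfural in the control strain, 1 fell and 13 did not pass. The share called was below the 35.4% over all genes. The list had a median of 0.17 log2. MAG1, a DNA repair glycosylase, rose by 1.97 ± 0.31 log2 (SE) and RAD59, a recombination gene, by 1.55 ± 0.44, while PLM2 fell by 0.85 ± 0.25. MAG1 stood at -1.14 to -0.73 in the 3 groups of the second set and at 0.97 to 1.75 in those of the first. It was thus high in the groups in which RNR1 was low. RAD59 lay on the same sides, at -1.04 to -0.53 and at 0.50 to 2.33. PLM2 went the other way, at -4.71 to -4.26 in the second set and at -5.72 to -5.56 in the first. Levels by set are not given for the rest of this list. RNR3 and HUG1 passed the test in none of the comparisons between those groups.

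Of 12 genes of nucleotide and thymidylate supply, 8 fell with furfural in the control strain, none rose and 4 did not pass. Their median was -1.41 log2. Over all genes 35.4% passed in this comparison, 849 rising and 1307 falling. ADK1, adenylate kinase, fell by 2.60 ± 0.55 log2 (SE), DCD1, deoxycytidylate deaminase, fell by 2.59 ± 0.54 and CDC21 fell by 2.33 ± 0.34. RNR1 thus fell beside most of this list. Of 34 genes of G1/S transcription and replication, 15 fell, 1 rose and 18 did not pass, with a median of -0.85. CDC6, which loads the replicative helicase, fell by 2.79 ± 0.25, POL30, the sliding clamp, fell by 2.43 ± 0.38 and RFC5, a clamp loader subunit, fell by 2.29 ± 0.20, while WHI5, an inhibitor of G1 exit, rose by 1.32 ± 0.33. Of 10 histone genes, HTZ1 and HHO1 among them, 1 fell, HTA2, which fell by 1.43 ± 0.34, and 9 did not pass.

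Of 12 genes for reductants of the enzyme and for its iron supply, 6 rose with furfural in the control strain, none fell and 6 did not pass. Their median was 0.99 log2, and 35.4% of all genes passed in this comparison. TRR1, thioredoxin reductase, rose by 3.56 ± 0.29 log2 (SE), TRX2, a thioredoxin, by 3.31 ± 0.32 and DRE2, which serves iron cofactor assembly, by 3.21 ± 0.48. Growth and stress markers moved too: 132 of 137 ribosomal protein genes fell and 5 did not pass, with a median of -2.78 log2, led by RPL21A at -4.18, RPL8A at -3.85 and RPS9B at -3.80. Of 15 stress genes 12 rose and 3 did not pass, with a median of 2.82 and with GRE1 at 5.42, HSP30 at 4.42 and HSP26 at 4.27. The part of these shifts in the RNR1 and DUN1 differences was not tested.

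**Figure D4:**
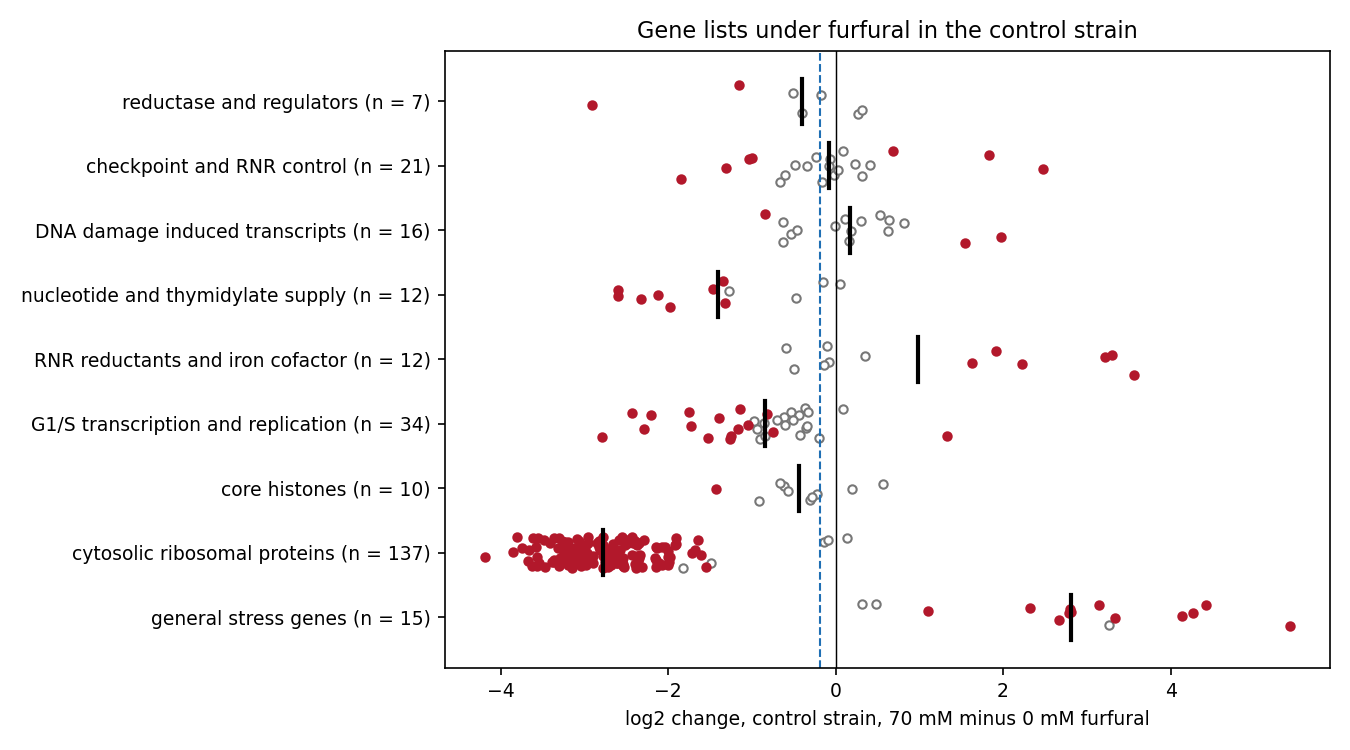
Change with furfural in the control strain, in log2, for the 7 genes and for the genes of the 8 lists, 1 point per gene. Nucleotide supply genes have a median of -1.41 and reductants one of 0.99, while all genes have a median of -0.18.

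The comparison of TAL-ADH with TAL at 0 mM, within 1 slide, was described for the same lists; 25.7% of all genes passed in it, 773 higher and 793 lower in TAL-ADH. Of the nucleotide supply genes 6 of 12 were higher in TAL-ADH and none was lower, among them CDC21 at 2.15 ± 0.34 log2 (SE) and ADK1 at 2.38 ± 0.55. Of the G1/S and replication genes 14 of 34 were higher and none was lower, with RFC5 at 1.96 ± 0.20. Of the reductants 7 of 12 were lower and 1 was higher, with TRR1 at -2.61 ± 0.29 and DRE2 at -2.90 ± 0.48. Of the damage-induced genes 6 of 16 were lower and 1 was higher, with MAG1 at -2.45 ± 0.31, RAD59 at -2.04 ± 0.44 and PLM2 at 1.43 ± 0.25. Of the checkpoint genes and regulators 2 of 21 were lower, ROX1 at -1.55 ± 0.47 and RFX1 at -0.68 ± 0.20, and none was higher. RAD53 differed by -0.78 ± 0.29 (adjusted p = 0.0813), the same sign as its fall with furfural in the control strain, while RNR1 had opposite signs in these comparisons. The median of all genes here was 0.04 log2. Among the ribosomal protein genes 134 of 137 were higher and 1 was lower, and 8 of 15 stress genes were lower and none was higher. Of the histone genes 1 of 10 was lower and none was higher. HTA2 differed by 0.28 ± 0.34 and did not pass. In the furfural effect in TAL, that in TAL-ADH, TAL against control at 70 mM and TAL-ADH against control at 0 mM, no gene of any of the 8 lists passed the test.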

How the data were processed

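The deposited scanner files, 1 per array, hold spot intensity, which Agilent Feature Extraction 10.1.1.1 background-subtracted and detrended within the array, per the file headers and the submitters' processing notes. Values used here are its log2, as the mean of each probe's unmarked spots (7 spots each) less the array's 75th percentile over gene probes. The authors' deposited table holds log2 values with medians of -0.167 to 0.0547; its centring is not stated, and it correlated with the scanner values, centred alike, at 0.999995 or more, so it served as an alternative chosen after the data were seen.

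A probe was detected where over 50% of its spots were well above background, and a gene was kept where detected on both arrays of a group (6083 kept, 173 dim). Of 6256 probes, 5756 matched a RefSeq locus. Groups follow the labels. limma 3.58.1 in R 4.3.3 fitted the 6 group means over all kept genes (6 residual and 3.11 prior degrees of freedom); 13 comparisons were tested at a Benjamini-Hochberg adjusted p under 0.05. The fit was tested on simulated data. With 2 arrays per group, their number limits the precision. Lists are described by counts and medians, without a test; named are the 7 members, up to 3 called genes per direction and list under furfural in the control strain, and MEC1, RAD53, RFX1, DIF1, WTM1 and IXR1. RNR1 and RNR3 are similar in sequence, and shared probe signal was not tested. The members, lists and detection threshold were chosen with earlier results of these data known. Alternatives were normexp background correction (offset 50), quantile normalization, no filter, the run as a block, single arrays left out and, over the 3 strains, slide as a term or the arrays against their labels left out.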

Additional observations from a re-analysis of the deposited data

Results flagged for a closer look

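The furfural effect on RNR1 differed between strains by a test of the difference itself. It was 2.90 log2 (SE 0.65) less negative in the TAL than in the control strain and 2.68 log2 (SE 0.65) less negative in the TAL-ADH than in the control strain, with limma adjusted p of 0.0241 and 0.0217. Without furfural the TAL arrays stood at -2.41 and -1.64, and with furfural the TAL-ADH arrays stood at 0.04 and 0.93; these are the groups whose overall profiles go against their labels. Whether the labels of these groups are right, or were exchanged, was not tested, and the strain difference in the RNR1 effect rests on them.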

How the results depend on the processing

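For the 7 genes, 1561 refits of 91 results were made; in none did a result past the threshold in either fit change sign, while 91 refits changed the sign of a result past it in neither. In 33 refits a result lost its call and in 14 it gained one. The 5 RNR1 differences between groups passed in 85 of 85 refits, at 2.09 to 3.29 log2 (highest adjusted p 0.0351); the 5 of DUN1 passed in 65 of 85, at 0.68 to 1.66. The RNR1 difference in furfural effect between TAL and control lost its call without control 0 mM run 1 (3.20, adjusted p = 0.0525) or run 2 (2.59, 0.0887), control 70 mM run 1 (2.65, 0.0551), TAL 0 mM run 1 (2.51, 0.0758) and TAL 70 mM run 1 (3.14, 0.0521) or run 2 (2.66, 0.0736). That between TAL-ADH and control lost it without control 0 mM run 2 (2.38, 0.0822), control 70 mM run 1 (2.43, 0.052), TAL-ADH 0 mM run 1 (2.14, 0.0568) and TAL-ADH 70 mM run 2 (2.23, 0.086). That of DUN1 gained one without control 70 mM run 2 (1.69, 0.0428).

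The count of genes called with furfural in the control strain was 2156 and ran from 1111 to 2267 with single arrays left out. Such ranges were 759 to 1857 for TAL minus control at 0 mM, 723 to 1626 for TAL-ADH minus TAL at 0 mM, 1136 to 2321 and 951 to 2052 for TAL-ADH minus control and minus TAL at 70 mM, and 0 to 62 and 0 to 44 for TAL-ADH minus control at 0 mM and TAL minus control at 70 mM. They were 1 to 64, 0 to 46 and 0 to 432 for furfural in TAL, in TAL-ADH and over the 3 strains. For the differences in furfural effect they were 282 to 792 (TAL minus control), 513 to 1350 (TAL-ADH minus control) and 0 to 58 (TAL-ADH minus TAL). Each fit with 1 array in a group assumes that it varies like the others.

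With normexp correction 1 gene was called with furfural in TAL, 0 in TAL-ADH, 0 in TAL-ADH minus control at 0 mM and 2 in TAL minus control at 70 mM. With quantile normalization 1 was called with furfural in TAL-ADH, 0 in TAL-ADH minus control at 0 mM and 12 in TAL minus control at 70 mM. Over the 3 strains 216 were called with slide as a term and 1781 without the arrays labelled TAL 0 mM and TAL-ADH 70 mM. In the latter fit the control strain alone had both doses, and the former combines differences within slides. Quantile normalization moved the median of all genes with furfural in the control strain from -0.18 to -0.06 log2, and normexp moved that for TAL minus control at 70 mM from 0.02 to 0.17.

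The runs share a number; their differences correlated at 0.04 to 0.86 over the 15 pairs of groups, and not every pair was above 0.1. With the run as a replicate block 55 genes were called with furfural in TAL, 2608 in TAL minus control and 2499 in TAL-ADH minus TAL at 0 mM, 357 in TAL minus control at 70 mM, and 1351 and 2210 in the furfural effects of TAL and TAL-ADH minus control. With the block RNR2 passed in TAL-ADH minus TAL at 0 mM (adjusted p = 0.0184), RNR4 and HUG1 in TAL-ADH minus control at 70 mM (0.0371 and 0.0367), HUG1 in TAL-ADH minus TAL at 70 mM (0.0464) and DUN1 in the furfural effect of TAL-ADH minus control (0.0281). The deposited table and the fit without a filter on dim genes changed no call of the 7. For HUG1 the low signal over background limits every difference.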
